A study of Mus musculus with 7 samples.

Results

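The insulin and insulin-like growth factor (IGF) axis was examined through 10 genes chosen by name: the ligand genes *Igf1* and *Igf2*, the receptor genes *Igf1r* and *Insr*, the receptor substrate genes *Irs1* and *Irs2*, and the binding protein genes *Igfbp3*, *Igfbp4*, *Igfbp5* and *Igfbp7*. They are 10 of the 20927 genes in the count table, and all 10 were among the 13894 genes with enough counts to be tested. The study sequenced poly(A) RNA from left ventricle tissue of 3 WT mice (replicates 1, 3 and 4) and of 4 mice homozygous for A178D (replicates 1 to 4), with 1 library per mouse. A178D is a missense change that places aspartate for alanine near the amino terminus of titin, the giant sarcomeric spring protein encoded by *Ttn*. It was made by CRISPR-Cas9 editing of mouse embryonic stem cells and is carried by every cell of the animal, not by cardiomyocytes alone. The strain label of both groups is C57BL/6J, and the labels name no treatment. The mice had free access to food, and age, sex and any fasting before sampling, which bears on insulin signalling, are not given for these hearts in the sources used here.

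The WT libraries held 51797208, 54245530 and 41102868 counts and the A178D libraries 40623300, 52345529, 42174448 and 33080675. Levels are given as CPM, after scaling of the library sizes with TMM factors, and values are listed in the order of the replicate numbers. Ventricular myocyte markers took 95059 to 104504 CPM in sum, and those of atrial myocytes 2.17 to 4.31 with *Bmp10* listed at 0. *Ttn* itself had 6659 ± 521 CPM in WT (SD, n = 3) and 5528 ± 1072 CPM in A178D (SD, n = 4), a log2 fold change of -0.27 (adjusted p = 0.287) that was -0.02 with offsets for transcript length and GC content (adjusted p = 0.890). Gene counts carry no allele, so that this value is no check of the genotype.

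IGF-I and IGF-II signal through the IGF-I receptor, a tyrosine kinase closely related to the insulin receptor, and both receptors phosphorylate the docking proteins Irs1 and Irs2. These recruit phosphatidylinositol 3-kinase (PI3K), which activates Akt, and Akt drives glucose uptake and protein synthesis while it keeps FoxO transcription factors out of the nucleus. In the heart the pathway is known for its role in physiological growth and in the choice of metabolic fuel, and secreted binding proteins hold IGFs in the circulation and at the cell surface.

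WT replicate 1 and A178D replicate 4 stood apart from the other libraries in how counts related to transcript length. For each library, the median deviation from the mean of all libraries was compared between 2248 genes with over 8000 bases of exon and 601 genes with under 1500. The difference of long from short genes was 0.23 on the log2 scale in WT replicate 1 and -0.38 in A178D replicate 4. It lay between -0.05 and 0.06 in the other 5 libraries. The exon lengths of the 10 genes range from 1209 bases (*Igfbp7*) to 16791 bases (*Igf1r*), and their log2 fold changes are therefore also given after a correction for transcript length and GC content (an offset per gene and library), or without both libraries.

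None of the 10 genes passed edgeR's quasi-likelihood test at a Benjamini-Hochberg adjusted p under 0.05, where 327 of all tested genes, or 2.35%, did. At an unadjusted p under 0.05 there were 4 of the 10 (*Irs1*, *Igfbp4*, *Igf1* and *Igf1r*), beside 16.7% of all tested genes. With DESeq2's Wald test, run with its own filter on low counts, 1 of the 10, *Irs1*, was called beside 5.08% of all genes, and with limma-voom 0 beside 2.35%. The hearts of the genotypes did not overlap in 4 of the 10 genes (*Igf1*, *Insr*, *Irs1* and *Igfbp4*), beside 16.1% of all tested genes. The log2 fold changes of A178D over WT lay above 0 in 4 genes and below 0 in 6, with a median of -0.09 beside 0.0023 over all tested genes. Their median size without sign was 0.22, beside 0.12. In this bulk tissue, fewer cells of a type and less RNA per cell cannot be told apart. The 95% confidence intervals of the single genes in this fit reached at most 0.59 on the log2 scale in either direction.

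**Figure D1:**
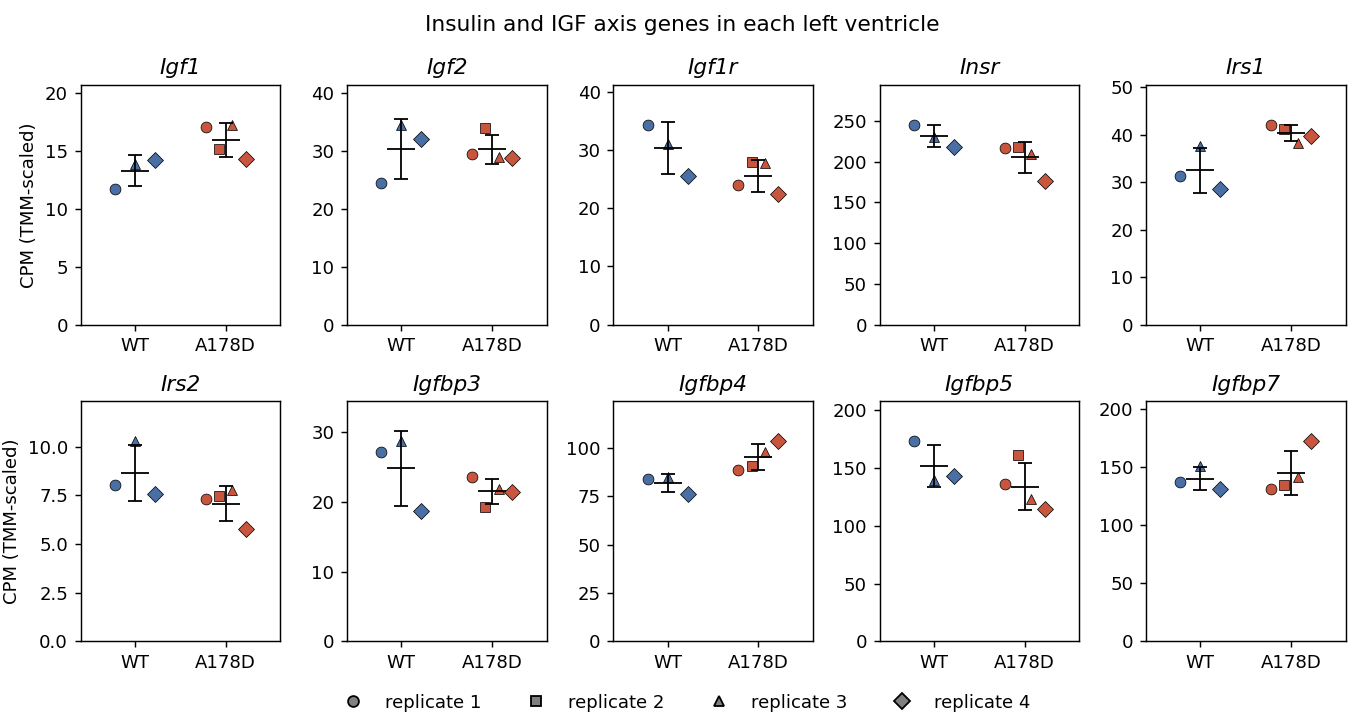
Level of each of the 10 genes in every left ventricle, as CPM scaled by TMM on axes that start at 0, with 1 point per heart, the mean as a horizontal line and the SD as error bars (WT n = 3, A178D n = 4). The 4 A178D hearts lie above the 3 WT hearts in *Igf1*, *Irs1* and *Igfbp4* and below them in *Insr*, and the genotypes overlap in the other 6 genes.

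Per kilobase of exon, the binding protein *Igfbp7* was the most abundant of the 10 transcripts, at 115.9 ± 8.4 CPM per kilobase in WT hearts (SD, n = 3). It was followed by *Igfbp5* at 25.3 ± 3.1, *Igfbp4* at 18.5 ± 1.1 and *Insr* at 16.8 ± 0.98 CPM per kilobase. *Igfbp3* had 7.93 ± 1.72, *Igf2* 5.30 ± 0.91 and *Irs1* 3.55 ± 0.51 CPM per kilobase. The lowest levels per kilobase were those of *Igf1r* at 1.80 ± 0.27, *Irs2* at 1.36 ± 0.23 and *Igf1* at 1.34 ± 0.13. Neighbours in this order overlapped among WT hearts for *Igfbp4* and *Insr*, for *Igfbp3* and *Igf2*, for *Igf1r* and *Irs2* and for *Irs2* and *Igf1*. By the means of the A178D hearts the first 7 places were the same, and *Igf1* stood above *Igf1r* and *Irs2*. Among A178D hearts *Igf1* (1.44 to 1.74 CPM per kilobase) and *Igf1r* (1.34 to 1.66) overlapped. So did *Igfbp5* (19.1 to 26.9) and *Igfbp4* (20.1 to 23.4).

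**Figure D2:**
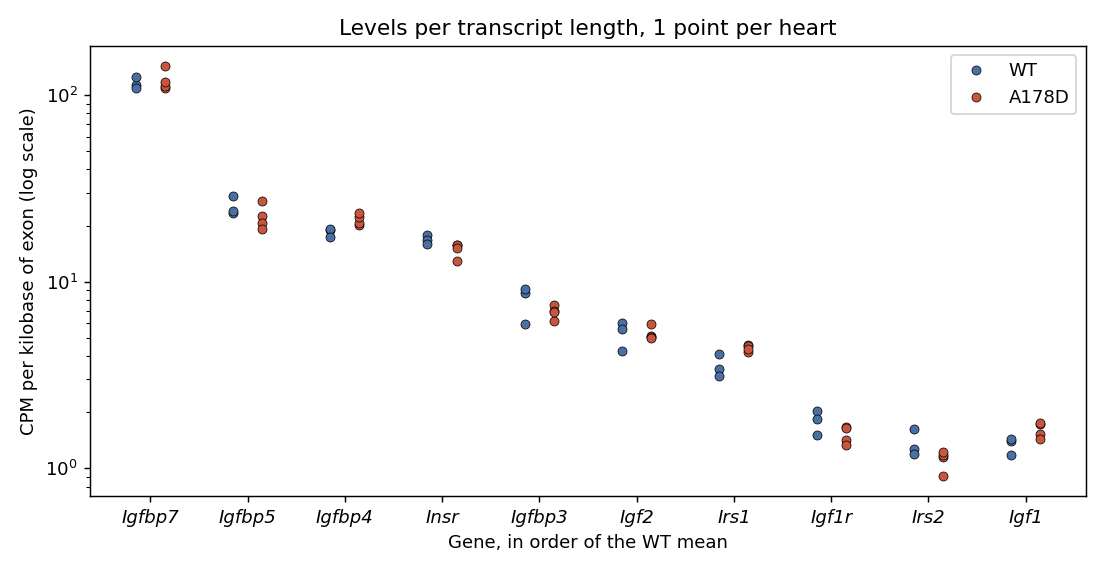
Level of the 10 genes per kilobase of merged exon length (CPM per kilobase, log axis), with 1 point per heart and genes in the order of the WT mean. *Igfbp7* lies between 109 and 125 CPM per kilobase in WT hearts, and *Igf1r*, *Irs2* and *Igf1* lie between 1.19 and 2.04.

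Among the ligands, *Igf1* (ENSMUSG00000020053, chromosome 10 from 87858265 to 87937042 on GRCm38) encodes IGF-I, which the liver releases under growth hormone and which many tissues also make locally. Its level was 11.8, 13.9 and 14.2 CPM in WT and 17.1, 15.2, 17.3 and 14.3 CPM in A178D hearts. All A178D hearts were above all WT hearts, but the lowest of them, replicate 4, barely so. Its log2 fold change was 0.27 (adjusted p = 0.234, standard error 0.11). It was 0.36 with the length and GC offsets (adjusted p = 0.0618) and 0.23 without WT replicate 1 and A178D replicate 4 (adjusted p = 0.235), and the adjusted p ranged up to 0.476 over all 17 alternatives.

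*Igf2* (ENSMUSG00000048583, chromosome 7 from 142650766 to 142666816) encodes IGF-II, an imprinted growth factor best known from fetal growth. It was present at 24.5, 34.4 and 32.1 CPM in WT and 29.5, 33.8, 28.9 and 28.7 CPM in A178D hearts. The lowest and the highest values both came from WT, and the 4 A178D hearts lay between them. A log2 fold change of -0.0043 was found, with a 95% confidence interval from -0.24 to 0.24. Its sign turned with limma-voom (0.015) and with the offsets (0.0032). Gm49394, an annotated gene on the same strand, overlaps *Igf2* over 16048 bases, and reads of both cannot be told apart where exons coincide.

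Among the receptors, *Igf1r* (ENSMUSG00000005533, chromosome 7 from 67952827 to 68233668) encodes the IGF-I receptor. Its level was 34.3, 31.0 and 25.5 CPM in WT and 23.9, 27.9, 27.7 and 22.4 CPM in A178D hearts. WT replicate 1 was the highest heart and A178D replicate 4 the lowest, and WT replicate 4 lay among the A178D hearts. This gave a log2 fold change of -0.25 (adjusted p = 0.284, standard error 0.11). With the length and GC offsets it was -0.14 (adjusted p = 0.425), and without WT replicate 1 and A178D replicate 4 it was -0.09 (adjusted p = 0.697).

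*Insr* (ENSMUSG00000005534, chromosome 8 from 3122061 to 3279617) encodes the insulin receptor and had the highest counts of the 10 genes, from 5719 to 12872 per library. It was measured at 245, 230.0 and 218 CPM in WT and 217, 217, 209 and 177 CPM in A178D hearts. No A178D heart reached the lowest WT heart, although A178D replicates 1 and 2 came within 1 CPM of it, and A178D replicate 4 was the lowest. For *Insr* the log2 fold change came to -0.17 (adjusted p = 0.311, standard error 0.08). With the offsets it was -0.08 (adjusted p = 0.491), and -0.06 without the libraries named above (adjusted p = 0.645). The offsets correct length and GC content together, and leaving out libraries also removes hearts, so that the part of transcript length alone was not tested.

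*Insr* was 9.41 ± 0.92 times as abundant as *Igf1r* per kilobase in WT hearts (SD over 3) and 9.85 ± 0.85 times in A178D hearts (SD over 4), a difference within the spread of either group.

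Of the substrates, *Irs1* (ENSMUSG00000055980, chromosome 1 from 82233101 to 82291416) encodes a docking protein through which both receptors recruit PI3K, and it had the smallest p of the 10 genes. Its level was 31.3, 37.6 and 28.6 CPM in WT and 42.1, 41.3, 38.3 and 39.8 CPM in A178D hearts. The A178D hearts lay close together, all above WT replicate 3, which was the highest of the more scattered WT hearts. At a log2 fold change of 0.31 (standard error 0.09, 95% confidence interval from 0.11 to 0.52) its adjusted p was 0.109, so that *Irs1* did not pass. It passed narrowly with DESeq2 (adjusted p = 0.0462) and with the length and GC offsets (0.37, adjusted p = 0.0454). Over all alternatives the adjusted p ranged from 0.0454 to 0.334, and without WT replicate 1 and A178D replicate 4 it was 0.135.

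*Irs2* (ENSMUSG00000038894, chromosome 8 from 10984681 to 11008458) encodes the second main docking protein, whose gene is known as a target of FoxO factors in liver. It was low, at 8.03, 10.3 and 7.58 CPM in WT and 7.31, 7.48, 7.75 and 5.78 CPM in A178D hearts. WT replicate 3 was the highest and A178D replicate 4 the lowest, and the groups overlapped through A178D replicate 3. *Irs2* had a log2 fold change of -0.28 (adjusted p = 0.337, standard error 0.14), and -0.14 without WT replicate 3 (adjusted p = 0.738). The value was -0.26 with the length and GC offsets and -0.25 without WT replicate 1 and A178D replicate 4.

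Within each heart, *Irs1* stood in a ratio to *Irs2* per kilobase of 2.69, 2.53 and 2.61 in WT and of 3.98, 3.82, 3.42 and 4.77 in A178D. The WT ratios were nearly equal although WT replicate 3 was highest in both genes, and every A178D heart had a higher ratio than every WT heart. The mean ratio was 2.61 ± 0.08 in WT (SD, n = 3) and 4.00 ± 0.57 in A178D (SD, n = 4). This ratio was chosen after the levels of both genes were seen, so that it is given as a description with no test.

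The genes with a profile over the 7 libraries most like that of *Irs1* were *Adamts2*, *Gnao1* and *Stk19*, out of 11487 genes whose mean count was at least 100. The root mean square difference of their centred log2 CPM values from those of *Irs1* was 0.028, 0.050 and 0.064. *Adamts2*, which encodes a procollagen protease, had 14.2, 16.2 and 12.6 CPM in WT and 18.4, 18.6, 17.3 and 18.0 CPM in A178D hearts. As in *Irs1*, WT replicate 3 was the highest WT heart and WT replicate 4 the lowest. None of these 3 genes passed the test, with adjusted p of 0.110, 0.0697 and 0.318. With the length and GC offsets *Adamts2* (adjusted p = 0.0353) and *Gnao1* (0.0209) did, and *Gnao1* also with DESeq2 (0.0191). These genes were picked for their likeness to *Irs1*, so that their p-values partly restate that choice and are given as a description.

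The binding proteins bind IGFs outside the cell and alter how long they last and how much reaches the receptor. *Igfbp4* (ENSMUSG00000017493, chromosome 11 from 99041244 to 99054392) encodes a binding protein that inhibits IGF action until the protease Pappa cuts it. Its level was 84.0, 84.9 and 76.4 CPM in WT and 88.9, 91.0, 97.8 and 103.5 CPM in A178D hearts. All A178D hearts were above all WT hearts. For *Igfbp4* the log2 fold change was 0.22 (adjusted p = 0.162, standard error 0.08), and it was 0.21 with the length and GC offsets (adjusted p = 0.0897). This was the steadiest value of the 10, between 0.17 and 0.25 in every alternative, and it was called in none of them.

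*Igfbp3* (ENSMUSG00000020427, chromosome 11 from 7206086 to 7213923) encodes the main carrier of IGFs in blood. It had 27.2, 28.6 and 18.7 CPM in WT and 23.5, 19.2, 21.8 and 21.4 CPM in A178D hearts. WT replicate 4 was the lowest of all hearts, and the other WT hearts were the highest, so that the A178D hearts fell inside the WT range. *Igfbp3* had a log2 fold change of -0.21 (adjusted p = 0.448), -0.38 without WT replicate 4 and -0.10 without WT replicate 3. With the length and GC offsets it was -0.25, and -0.14 without WT replicate 1 and A178D replicate 4.

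*Igfbp5* (ENSMUSG00000026185, chromosome 1 from 72857932 to 72874884) encodes a binding protein that also attaches to extracellular matrix. It had 173, 139 and 143 CPM in WT and 136, 162, 124 and 115 CPM in A178D hearts. A178D replicate 2 was above 2 of the WT hearts, WT replicate 1 was the highest and A178D replicate 4 the lowest. For *Igfbp5* the log2 fold change was -0.18 (adjusted p = 0.440), and it was -0.17 with the length and GC offsets (adjusted p = 0.399). Without WT replicate 1 and A178D replicate 4 it was -0.0089 (adjusted p = 0.972). Single hearts moved it both ways, to -0.0735 without WT replicate 1 and to -0.28 without A178D replicate 2.

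*Igfbp7* (ENSMUSG00000036256, chromosome 5 from 77349240 to 77408041) encodes a related protein, abundant in vessels, that binds IGFs only weakly. It had 138, 151 and 132 CPM in WT and 132, 135, 142 and 172 CPM in A178D hearts. A178D replicate 4 was the highest heart, and the others overlapped. *Igfbp7* had a log2 fold change of 0.05, with a 95% confidence interval from -0.15 to 0.25 (adjusted p = 0.844), and its sign turned with the offsets (-0.07) and without A178D replicate 4 (-0.04). The summed level of the 4 binding proteins per kilobase was 25.7 ± 4.8 times that of both ligands in WT and 24.9 ± 3.4 times in A178D hearts, and most of that sum was *Igfbp7*.

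Other annotated genes lie on the strand opposite *Igf1*, *Igf2*, *Insr*, *Irs1*, *Irs2* and *Igfbp7*. The libraries were stranded, but whether strand was used in counting is not given in the sources used here, and without it reads of such pairs cannot be told apart.

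**Figure D3:**
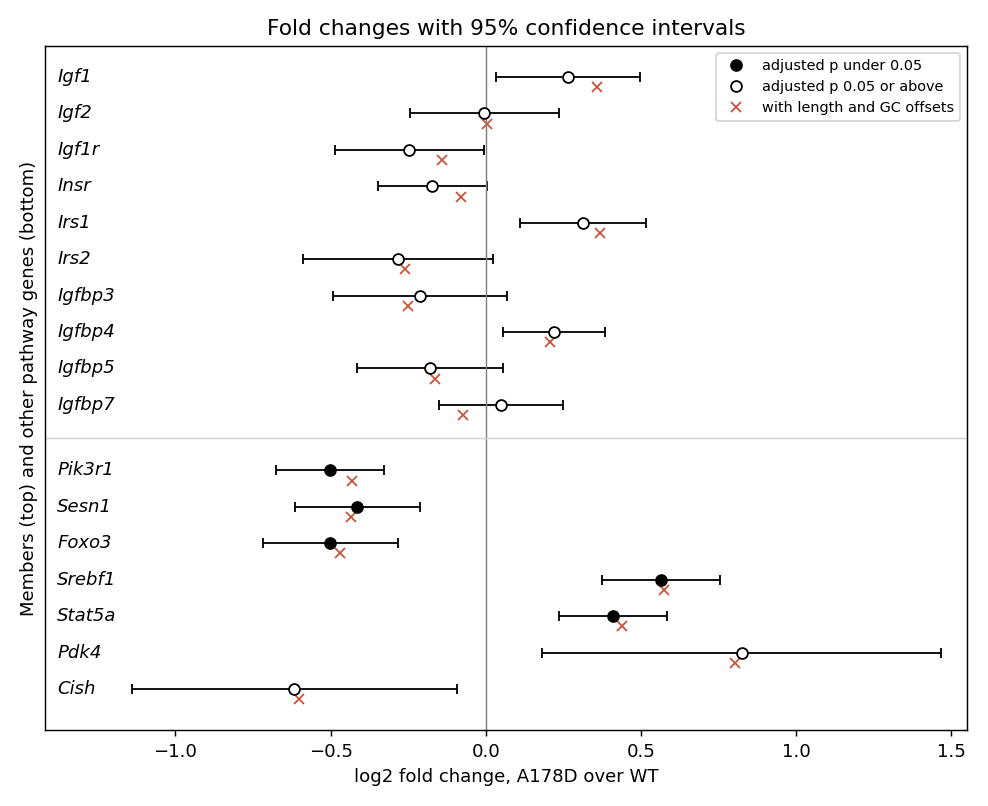
Log2 fold change of A178D over WT with its 95% confidence interval from edgeR (circles and bars, 3 WT and 4 A178D hearts) for the 10 genes (top) and for 7 other genes of the pathway (bottom), with the value after length and GC offsets as a cross. Filled circles mark an adjusted p under 0.05, which *Pik3r1*, *Sesn1*, *Foxo3*, *Srebf1* and *Stat5a* reached and none of the 10 genes did.

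Cell type markers were measured beside these genes. Of 12 smooth muscle and pericyte markers, 12 were lower in A178D and 6 fell (*Cnn1*, *Myh11*, *Mylk*, *Tagln*, *Acta2* and *Lmod1*). By the same test 1.31% of all tested genes fell. The 12 markers had a median log2 fold change of -0.43. In sum they took 1564, 1561 and 1499 CPM in WT and 1171, 1290, 1366 and 1097 CPM in A178D hearts, led by *Abcc9*. *Igfbp5* and *Igfbp7*, known to be made in vessel walls, had log2 fold changes of -0.18 and 0.05, and both overlapped between the genotypes. Whether either followed these markers was not tested. Of 8 fibroblast markers 7 were higher and 1, *Col3a1*, rose, beside 1.04% of all tested genes. The sum of the 8, led by *Dcn*, was 1206, 1253 and 1131 CPM in WT and 1466, 1373, 1323 and 1348 CPM in A178D hearts. These sums did not overlap between the genotypes. Of the 8 single markers 4 did not overlap (*Col3a1*, *Col1a1*, *Col1a2* and *Lum*), beside 16.1% of all tested genes. The levels of *Dcn*, *Dpt*, *Tcf21* and *Pdgfra* overlapped. The log2 fold change was 0.62 for *Col3a1*, 0.45 for *Col1a1*, 0.26 for *Col1a2*, 0.19 for *Lum* and 0.14 for *Dpt*. It was 0.0026 for *Dcn*, 0.04 for *Tcf21* and -0.06 for *Pdgfra*. Of 8 macrophage markers 6 were higher and none passed. At an unadjusted p under 0.05 there were 5, beside 16.7% of all tested genes. Of the 5, *Adgre1*, *C1qa* and *C1qb* were higher and *Lyve1* and *Cd163* lower. The sum of the 8 macrophage markers, led by *Csf1r*, was 192, 260.3 and 223 CPM in WT and 243, 258, 226 and 243 CPM in A178D. No marker of these 3 lists was at 0. The part of these cell types in the levels of the 10 genes was not tested.

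Of 8 endothelial markers, led by *Kdr*, 5 were higher and 3 lower, with sums of 1235, 1149 and 1070 CPM in WT and 1154, 1136, 1189 and 1148 CPM in A178D hearts. Ventricular myocyte markers were higher in 3 of 8 genes and lower in 5. None of either list passed. Adipocyte markers, which would accompany fat with its own insulin response, summed to at most 1.65 CPM in any heart, and those of the epicardial layer to at most 5.31 CPM, nearly all of it *Wt1*. Of the skeletal muscle list, *Ckm*, which the heart also expresses, gave nearly the whole sum, with *Myh4* and *Myh1* at no more than 6 counts in any library. Erythrocyte markers took 100.2 to 166 CPM, with the highest sum in A178D replicate 4.

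Beyond the 10 genes, 102 further genes of the pathway were listed by role. Of these 101 were in the count table and 93 were tested. The test called 5 of them, or 5.38%, with 2 higher in A178D (beside 1.04% of all tested genes) and 3 lower (beside 1.31%). The lists were drawn up with earlier results of these data known, so that these shares are a description. The median log2 fold change of the 93 was -0.05, with 33 genes above 0 and 60 below. Without WT replicate 1 and A178D replicate 4, 11 of the pathway genes and 760 of all genes were called. DESeq2 with its own filter called 9 of the pathway genes beside 666 of all genes, and edgeR with no filter 6 beside 436. Leaving out single hearts gave between 2 and 9 of the pathway genes. There were 2 without WT replicate 3, A178D replicate 1 or A178D replicate 3, beside 53, 90 and 190 of all genes. There were 9 without WT replicate 1, beside 453 of all genes, and 3 without WT replicate 4, beside 82.

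No insulin mRNA was found, with *Ins1* and *Ins2* listed at 0 counts in all 7 libraries. The receptor *Igf2r*, which clears IGF-II, had 290.1 ± 17.3 CPM in WT (SD, n = 3) and 267.6 ± 28.3 CPM in A178D (SD, n = 4) and did not pass (adjusted p = 0.532). Neither did the insulin receptor-related gene *Insrr*, at no more than 0.304 CPM in any heart.

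Of 5 further binding protein genes, *Igfbp1* was listed at 0 counts and *Igfbp2* was too low to test. The other 3, *Igfbp6*, *Igfals* and *Igfbpl1*, had log2 fold changes between 0.30 and 0.61, and none passed (2 had an unadjusted p under 0.05). *Igfals*, whose product joins Igfbp3 and IGF in the circulating complex, had 4.85, 8.91 and 9.65 CPM in WT and 8.87, 9.52, 11.8 and 12.3 CPM in A178D hearts. WT replicate 1 was the lowest, and the others overlapped. None of the 4 tested genes of binding protein proteolysis passed, with a median log2 fold change of -0.02 and *Htra1* as the most abundant, and *Pappa2* was too low to test. *Pappa*, the protease gene named above, was low, at 1.67, 1.43 and 1.38 CPM in WT and 1.14, 1.33, 0.890 and 0.865 CPM in A178D hearts. The genotypes did not overlap, and the log2 fold change of -0.49 did not pass (adjusted p = 0.374).

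Of the 8 tested genes for other substrates and adaptors none passed, and their median log2 fold change was -0.0087. *Irs4* was listed at 0 counts. In the relay from PI3K to Akt, mTOR and ERK, 20 of 27 genes were lower in A178D, with a median of -0.04, and 1 fell. This gene, *Pik3r1*, encodes a regulatory subunit that tethers PI3K to Irs1 and Irs2. It had 188, 205 and 233 CPM in WT and 147, 151, 156 and 136 CPM in A178D hearts. Every A178D heart was below every WT heart. It fell by 0.50 on the log2 scale (adjusted p = 0.00731, standard error 0.08), and it was called in all 17 alternatives, with adjusted p from 2.61e-06 to 0.0499. With the length and GC offsets the log2 fold change was -0.43 (adjusted p = 0.00716). None of the 21 inhibitors of the pathway passed, with 14 lower and a median log2 fold change of -0.09, and 5 had an unadjusted p under 0.05, as did 23 of the 93 pathway genes (24.7%) and 16.7% of all tested genes.

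Among 15 tested FoxO factors and genes repressed by insulin, 11 were lower in A178D, the median log2 fold change was -0.13, and 2 genes fell. *Foxo3*, which encodes a FoxO transcription factor, had 46.8, 52.7 and 54.8 CPM in WT and 36.4, 41.5, 37.1 and 30.1 CPM in A178D hearts. *Sesn1*, which encodes a stress-induced inhibitor of mTOR signalling and is a FoxO target, had 148, 182 and 199 CPM in WT and 136, 126, 124 and 142 CPM in A178D hearts. In both genes the genotypes did not overlap, and in *Sesn1* WT replicate 1 came close to A178D replicate 4. *Foxo3* fell by 0.50 on the log2 scale (adjusted p = 0.0205, standard error 0.10) and *Sesn1* fell by 0.41 (adjusted p = 0.0344, standard error 0.09). *Foxo3* lost its call without WT replicate 3 (adjusted p = 0.115), WT replicate 4 (0.110), A178D replicate 1 (0.0672) or A178D replicate 3 (0.0527), and its log2 fold change ranged from -0.57 to -0.42 over the fits without 1 heart. *Sesn1* lost its call without WT replicate 3 (adjusted p = 0.171), WT replicate 4 (0.168) or A178D replicates 1 (0.0906), 2 (0.0893) or 3 (0.0977), with log2 fold changes from -0.52 to -0.32 over the same fits.

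*Pdk4*, which encodes a kinase that restrains glucose oxidation and which insulin is known to repress, had the largest log2 fold change of the listed genes whose mean count was at least 50. It had 346, 136 and 497 CPM in WT and 624, 648, 637 and 403 CPM in A178D hearts. WT replicate 3 was far below all others, and A178D replicate 4 lay inside the WT range. The log2 fold change of 0.82 had a standard error of 0.30 and did not pass (adjusted p = 0.183), and it was 0.45 without WT replicate 3 (adjusted p = 0.325) and 1.261 without WT replicate 4 (adjusted p = 0.0903).

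Of 4 genes that insulin induces, 3 were higher and 1 rose. *Srebf1*, which encodes the sterol regulatory element-binding transcription factor of lipid synthesis, had 48.4, 52.5 and 50.8 CPM in WT and 63.1, 77.9, 81.1 and 77.0 CPM in A178D hearts. The WT hearts were nearly equal, and all A178D hearts were above them. *Srebf1* rose by a log2 fold change of 0.56 (adjusted p = 0.00601, standard error 0.09), and it was called in all 17 alternatives. *Hk2*, which encodes a hexokinase and had the highest counts of this list, was measured at 558, 537 and 513 CPM in WT and 473, 484, 481 and 475 CPM in A178D hearts. Every A178D heart was below every WT heart, and *Hk2* did not pass (log2 fold change -0.16, adjusted p = 0.202).

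In the growth hormone receptor branch, which controls *Igf1* in liver, 1 of 6 genes rose and 4 were lower, with a median log2 fold change of -0.15. *Stat5a*, which encodes a transcription factor activated by the receptor's kinase Jak2, had 31.1, 28.4 and 33.8 CPM in WT and 40.1, 41.6, 42.9 and 40.7 CPM in A178D hearts. The genotypes did not overlap. *Stat5a* rose by a log2 fold change of 0.41 (adjusted p = 0.0183, standard error 0.08), and the call was lost without WT replicate 3 (adjusted p = 0.124), A178D replicate 1 (0.0555) or A178D replicate 3 (0.0574). Over the fits without 1 heart the log2 fold change ranged from 0.35 to 0.47. *Ghr*, the receptor gene, and *Jak2* were lower in every A178D heart than in any WT heart, with log2 fold changes of -0.16 (adjusted p = 0.296) and -0.22 (adjusted p = 0.136), and did not pass. *Cish*, a STAT5-induced inhibitor, had 72.0, 186 and 145 CPM in WT and 67.1, 70.7, 102 and 111 CPM in A178D. WT replicate 1 lay among the A178D hearts. *Cish* did not pass (log2 fold change -0.62, adjusted p = 0.223), but it did without WT replicate 1 (-0.92, adjusted p = 0.00844), and without WT replicate 3 the value was -0.31 (adjusted p = 0.628). Over the alternatives its adjusted p ranged from 0.000687 to 0.628.

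Of the genes for the *Igf2* locus and *Igf2* mRNA binding, 3 were tested and none passed, with *Igf2bp1* listed at 0 counts. *Plagl1*, which encodes an imprinted activator of *Igf2*, was the most abundant, at 3.98, 3.69 and 3.94 CPM in WT and 5.73, 6.37, 4.52 and 3.03 CPM in A178D hearts. A178D replicate 4 was the lowest heart and the other 3 were above WT, and the adjusted p was 0.431.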

How the data were processed

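RNA from 3 WT and 4 homozygous A178D left ventricles was sequenced from both ends with stranded poly(A) libraries. The authors deposited raw counts per gene, without normalization. The submitters' processing notes name bcl2fastq 2.18.0.12, HISAT2 2.1.0, SAMtools 1.6, DESeq2 1.26.0 and the build GRCm38. The counting program, its strand setting and the annotation are not given in the sources used here. A second deposited table of normalized counts was not used.

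Names, positions and merged exon lengths came from GENCODE M21 on GRCm38 by Ensembl identifier, which left 268 of 21257 entries without a name. The 442 entries in 219 sets with identical counts in all libraries and a total of at least 30 were reduced to 1 per set, which with repeated identifiers left 20927 genes. Odd numbers made up 17.6 to 20.3% of the counts from 1 to 20, so that most fragments appear to be counted once per end and a low count stands for fewer molecules.

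A178D was compared with WT in edgeR 4.0.16 (R 4.3.3) by glmQLFit and glmQLFTest, with TMM normalization and without covariates. A gene was tested if at least 3 libraries held 10 counts or more, and p-values were adjusted over the 13894 tested genes by Benjamini-Hochberg. Standard errors and 95% confidence intervals belong to this model, and its p-values rest on the spread between mice (biological coefficient of variation 0.111). The pipeline was tested on simulated data. Figures used Python 3 with matplotlib.

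The text names the 10 genes, every called gene of the pathway lists, the 5 listed genes with the largest absolute log2 fold change at a mean of at least 50 counts (1 of which is not reported here), and the 3 genes most like the member with the smallest p, plus further listed genes (such as *Igfals*, *Igf2r*, *Plagl1*, *Hk2*, *Pappa*) and *Ttn* chosen after their values were seen. Members and lists were chosen with earlier results of these data known. Alternatives were DESeq2 1.42.0 with its independent filtering, its size factors in edgeR, limma-voom (limma 3.58.1), other filters on low counts, the table with every repeated entry, halved counts, offsets for transcript length and GC content (mgcv 1.9.3), the replicate number as a block, and leaving out each library. Leaving out both libraries with a length trend was added after seeing the data. Promoter sequences were to be shown for called members, of which there were none.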

Additional observations from a re-analysis of the deposited data

Results flagged for a closer look

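In the 4 A178D hearts, 1 heart lay far from the other 3 in 2 of the 18 genes examined, beside about 1 in 20 groups that chance gives. For *Igf2*, the highest A178D heart, replicate 2, had 33.8 CPM, where the others lay between 28.7 and 29.5. For *Pdk4*, the lowest A178D heart, replicate 4, had 403 CPM, where the others lay between 624 and 648. The 3 WT hearts are too few for such a check.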

How the results depend on the processing

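Over 17 alternatives, the 10 genes gave 170 log2 fold changes, of which 158 kept their direction and their side of the threshold. The count of called members was 0, but 1 (*Irs1*) with DESeq2 and 1 with the length and GC offsets. It was 0 in each of the 7 fits without 1 library. All tested genes called numbered 327, and 666 with DESeq2 (which gave an adjusted p to 13105 genes after its own filter, so that test and genes differ), 436 with edgeR and no filter, 468 with the offsets, 760 without WT replicate 1 and A178D replicate 4, and between 53 and 453 without 1 library (453 without WT replicate 1, 53 without WT replicate 3, 82 without WT replicate 4, 90 without A178D replicate 1, 216 without A178D replicate 2, 190 without A178D replicate 3). Pathway genes called numbered 5, and 9 with DESeq2, 6 with the offsets, 11 without WT replicate 1 and A178D replicate 4, and between 2 and 9 without 1 library. The cause of these differences was not tested.

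A sign turned in 10 of the 170 values, all of them near 0. *Igf2* (-0.0043) was 0.015 with limma-voom and 0.0032 with the offsets, and ranged from -0.14 to 0.098 without 1 library. *Igfbp7* (0.05) was -0.073 with the offsets, -0.057 without WT replicate 1 and A178D replicate 4, and ranged from -0.044 to 0.11 without 1 library.

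Same-numbered WT and A178D libraries did not deviate together, with correlations of 0.0031, -0.04 and -0.04, so that the numbers do not pair the mice. With the replicate block, 271 genes, 0 members and 5 pathway genes were called (*Sesn1* and *Stat5a* were not among these 5). Depth limits *Irs2* most, with 187 to 560 counts per library.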
